A study of Mus musculus with 3 samples.

Results

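The homologous recombination and Fanconi genes followed here are 35 mouse genes that repair broken or crosslinked DNA, taken by name from the gene table the authors deposited. Each symbol matched among the 50043 gene IDs of that table, and all 35 had FPKM above 1 in all 3 libraries. RNA was sequenced from KH2 mouse embryonic stem cells in which Pold3, an accessory subunit of DNA polymerase delta, can be knocked out by induction. One library came from each of the passages P0, P1 and P2, and all 3 carry the same inducible allele. The labels give neither the inducing agent, nor whether induction came before or after P0, nor cells without the allele, so time in culture and loss of Pold3 cannot be told apart. Because every passage has 1 library, differences could not be set against a spread between replicates, and p-values were not computed.

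Homologous recombination copies an intact sister chromatid to mend a broken one. The break is trimmed to single strands, these are paired with the intact copy, and the joined molecules are later cut or unwound. The Fanconi pathway removes crosslinks between DNA strands: its core complex attaches ubiquitin to FANCD2 and FANCI, and nucleases then cut the crosslink out.

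Levels are given in FPKM, fragments per kilobase of gene length scaled to the library total. The totals behind the values were 23213528 reads for P0, 18059914 for P1 and 22405670 for P2. The reads behind each FPKM could be recovered, and the members had between 64 and 3424 reads in P0, between 73 and 3365 in P1 and between 63 and 3602 in P2. Ratios between libraries carry exact 95% intervals on these reads, which compare the libraries and cover counting error only. Differences are given as log2(FPKM + 1), on which 1 is near a 2-fold difference and low genes are understated. All genes at FPKM 1 or above in either library of a pair were compared.

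Pold3 had 49.3, 13.03 and 11.6 FPKM in P0, P1 and P2, and was 4.23-fold lower in P2 than in P0 (interval 3.74 to 4.79). Of 10 stem cell markers, all were above 112 FPKM in every library. In P2 against P0, 6 were lower and 4 higher, with a median difference of -0.18. The list summed to 4518, 4234 and 4551 FPKM in P0, P1 and P2. Klf4 had 229, 116 and 113 FPKM and Esrrb 221, 127 and 118 FPKM in P0, P1 and P2, while Pou5f1 had 712, 746 and 670.3 FPKM. Among the 4 that were higher in P2, Nanog had 179, 165 and 239.6 FPKM and Dppa5a 1089, 1107 and 1322 FPKM. Of 10 fibroblast markers, 7 were under FPKM 1 in every library, with Postn at 0 throughout, and the list summed to 7.79, 19.3 and 21.2 FPKM. Summed trophoblast markers measured 73.3, 118 and 157 FPKM and 12 proliferation genes summed to 3545, 3665 and 3794 FPKM. Of these 12 genes, 6 were higher and 6 lower in P1 than in P0, and 8 higher and 4 lower in P2 than in P0. Among them Mki67 had 64.1, 43.5 and 40.4 FPKM and Rrm2 323, 412.5 and 440.4 FPKM. Summed endoderm markers measured 176, 330.4 and 415 FPKM, of which Sparc made up 126, 259.8 and 321 FPKM and Col4a1 29.1, 54.4 and 78.03 FPKM, while Gata4 had 3.39, 2.78 and 3.49 FPKM and Lama1 15.9, 11.4 and 8.73 FPKM. The part of these lists in the values of the repair genes was not tested. In bulk RNA, fewer cells of a type and less RNA per cell cannot be told apart.

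None of the 35 repair genes differed by 1 or more in either direction between the libraries. The shares of all genes past that size are also small, so this count is not read as particular to the repair genes. Among all genes compared, 4.12% were higher and 0.549% lower by that size in P1 against P0 (4.67% together), 6.72% and 1.16% in P2 against P0 (7.88%), and 0.78% and 0.883% in P2 against P1 (1.66%). By the smaller size of 0.5, about 1.41-fold, 2 members were higher in P1 than in P0 and none lower, beside 14.4% higher and 3.56% lower of all genes. They were Rad51d at 0.59 and Fancg at 0.55. In P2 against P0, 3 members were higher by 0.5 and none lower, beside 18.8% and 5.89%, namely Slx4 at 0.65, Fanci at 0.58 and Fancg at 0.50. No member passed 0.5 in P2 against P1, beside 5.22% higher and 3.73% lower. The members' share, 5.71% in P1 and 8.57% in P2 against P0, was below the share of all genes higher by that size. These calls depend on the scaling. With median-of-ratios scaling no member passed 0.5 in P1 against P0, and in P2 against P0 Slx4 was higher at 0.53 and Fancl lower at -0.54, beside 14.8% and 9.79% of all genes. With quantile normalization none passed in P1 against P0, and in P2 against P0 Slx4 and Fanci were higher and Fancl and Fancf lower, beside 12.9% and 11.3%. Just outside 0.5 in P2 against P0 as deposited were Eme1 at 0.496 and Rad51d at 0.493.

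The median member differed by 0.13 in P1 against P0 and by 0.11 in P2 against P0, while the medians of all genes compared were 0.06 and 0.07. In P2 against P1 the median member was at -0.03 and the median gene at 0.02. Counting any size, 26 members were higher and 9 lower in P1 than in P0, beside 57.6% and 42.4% of all genes. In P2 the counts were 22 and 13 against P0, beside 57.7% and 42.3%, and 17 and 18 against P1, beside 53.8% and 46.2%. The split against P0 depended on library scaling. Median-of-ratios scaling put the median of all genes at -0.05 in both comparisons, and the members were then 19 higher and 16 lower in P1 and 15 higher and 20 lower in P2, beside 43.9% and 44.5% of all genes higher. The members' median lay above that of all genes by 0.07 in P1 and 0.04 in P2 with the deposited scaling and with this one.

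**Figure D1:**
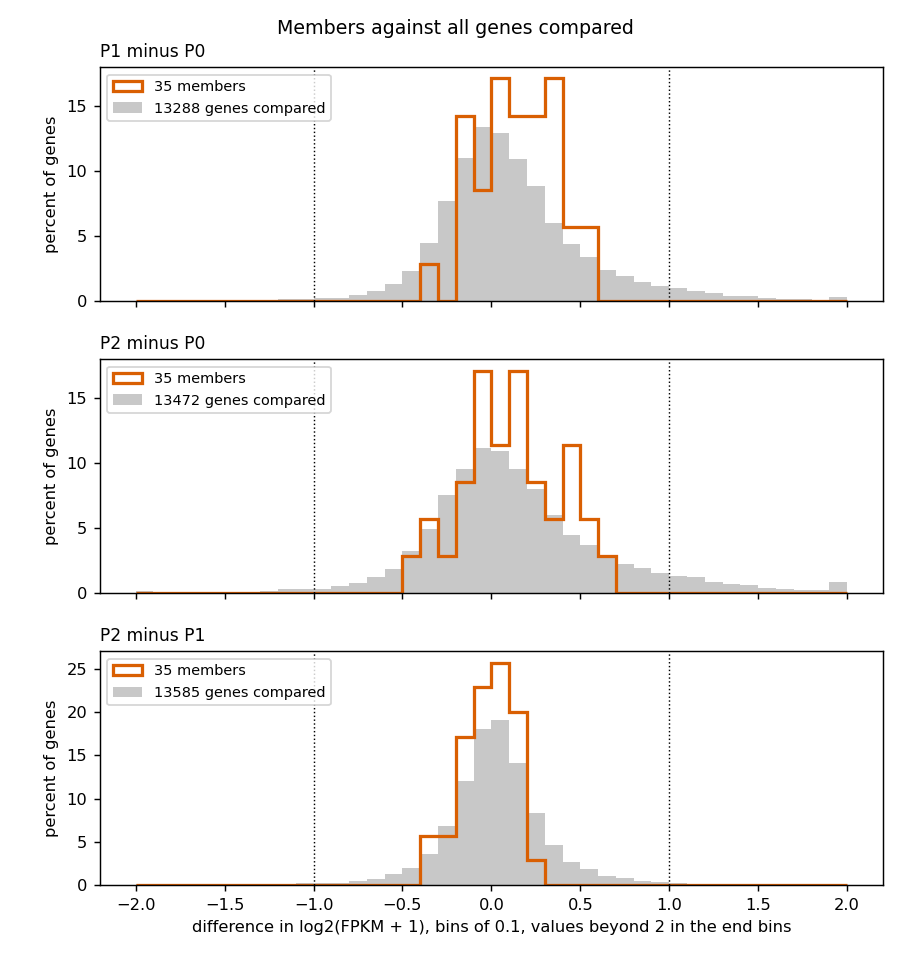
Difference in log2(FPKM + 1) (horizontal axis, bins of 0.1) of the 35 members (orange outline) and of all genes compared (grey), as percent of genes, in 3 comparisons of 13288, 13472 and 13585 genes. No member reaches the dotted lines at -1 and 1.

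Counting intervals show which differences exceed the sampling of reads. The interval of the P1 over P0 ratio lay above 1 for 15 members (42.9%) and below 1 for 3 (8.57%), beside 34.5% and 22.6% of all genes. For P2 over P0 it lay above 1 for 15 (42.9%) and below 1 for 6 (17.1%), beside 39.6% and 25.7%. For P2 over P1 it lay above 1 for 6 (17.1%) and below 1 for 6 (17.1%), beside 24.1% and 18.9%. Against P0, the members' share above 1 was therefore close to the background in P2. As deposited, their share below 1 was under the background in both P1 and P2 against P0. Median-of-ratios scaling turned the balance for P2 over P0. The interval then lay above 1 for 10 members and below 1 for 12, beside 29.1% and 37.4% of all genes. For P1 over P0 the balance narrowed but did not turn, with 10 above 1 and 9 below 1, beside 24.0% and 34.9%. The 10 members above 1 for P2 over P0, each also above 1 as deposited, were Rad51d, Xrcc2, Rad52, Rad50, Fancg, Fancd2, Fanci, Helq, Slx4 and Eme1. Brca2, Xrcc3, Mre11a, Fancf, Fancl and Blm had intervals below 1 with both scalings, and Rad54b, Nbn, Rbbp8, Fancc, Fance and Wrn with median-of-ratios scaling alone.

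**Figure D2:**
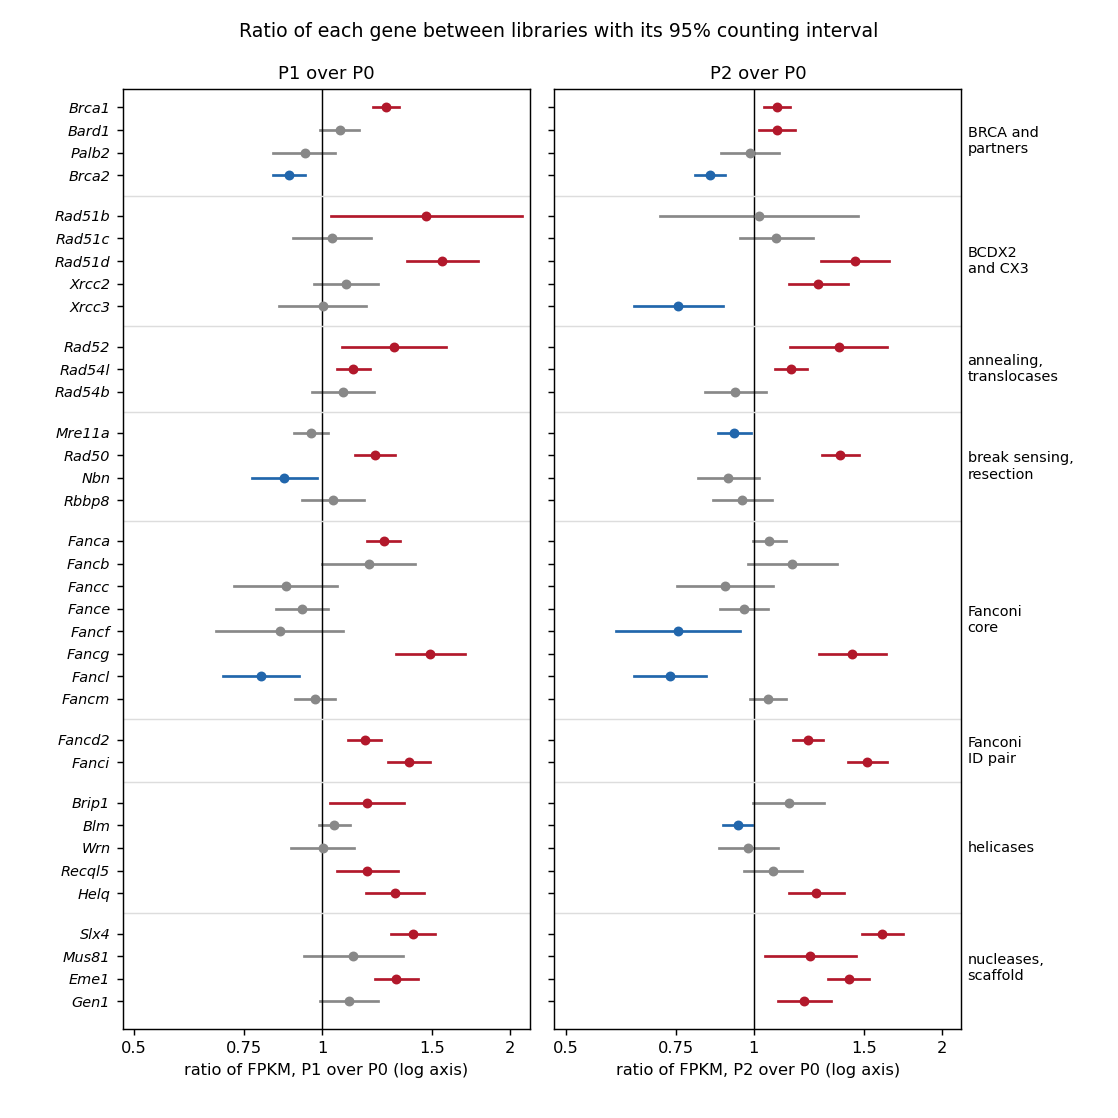
Ratio of FPKM between libraries (log axis) for the 35 genes, grouped by role, with exact 95% counting intervals, for P1 over P0 (left) and P2 over P0 (right). Red marks an interval above 1, blue one below 1 and grey one that holds 1. In P2 over P0 Slx4 has the highest ratio, 1.61, and Fancl the lowest, 0.735.

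In the nucleases that cut joined or crosslinked DNA, with their scaffold, all 4 genes were higher in P1 and in P2 than in P0. This held with the deposited, the median-of-ratios and the quantile scaling. As deposited, 57.6% of all genes compared were higher in P1 than in P0 and 57.7% in P2 than in P0. Slx4, the scaffold that holds several nucleases together and is itself a Fanconi gene, had 17.5, 24.5 and 28.2 FPKM in P0, P1 and P2, from 1098, 1193 and 1703 reads. P0 was its lowest and P2 its highest library, with P2 over P0 at 1.61 (interval 1.49 to 1.74) and P2 over P1 at 1.15 (interval 1.07 to 1.24). Eme1, the partner of the MUS81 nuclease, had 46.7, 61.4 and 66.3 FPKM and a P2 over P0 ratio of 1.42 (interval 1.32 to 1.53). Lrrc59 shares 8.0% of the exon bases of Eme1 on the other strand, so reads of the pair may be mixed. Lrrc59 measured 241.9, 243.6 and 248.7 FPKM, a P2 minus P0 difference of 0.04. Mus81 itself measured 9.97, 11.2 and 12.3 FPKM, and Gen1, which resolves crossed junctions between chromatids, 9.88, 10.9 and 11.9 FPKM with a P2 over P0 ratio of 1.21 (interval 1.09 to 1.33). In FPKM both followed the same order of libraries as Slx4. For each of the 2 genes, the P1 over P0 and P2 over P1 intervals held 1. With median-of-ratios scaling their P2 over P0 intervals also held 1. The summed FPKM of the 4 genes was 84.1, 108 and 119.

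The Fanconi ID pair, the ubiquitin targets of the pathway, was also higher in both later libraries, under all 3 scalings. Fanci had 25.3, 34.8 and 38.4 FPKM in P0, P1 and P2, and P2 over P0 was 1.52 (interval 1.41 to 1.63). Fancd2 had 50.1, 58.6 and 61.3 FPKM, with the smaller P2 over P0 ratio of 1.22 (interval 1.16 to 1.29). Polg, the gene of the mitochondrial DNA polymerase, shares 16.0% of the exon bases of Fanci on the other strand and measured 43.7, 42.8 and 48.1 FPKM, a P2 minus P0 difference of 0.14.

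The Fanconi core complex, the ubiquitin ligase that acts on the ID pair, was mixed: in P2 against P0, 4 of its 8 genes were higher and 4 lower, or 2 and 6 with median-of-ratios scaling. Fancg, which binds FANCA in the complex, had 18.1, 26.9 and 25.9 FPKM in P0, P1 and P2, with P1 over P0 at 1.49 (interval 1.31 to 1.69) and P2 over P0 at 1.44 (interval 1.27 to 1.63). Its P1 and P2 levels both lay above P0 and differed by -0.05 from each other. Fancl, which carries the RING domain of the ligase, had 19.4, 15.5 and 14.3 FPKM and was 1.36-fold lower in P2 than in P0 (interval 1.19 to 1.56). P0 was its highest library, and its P2 minus P0 difference of -0.42 was the lowest of the 35. Vrk2, which shares 13.7% of the exon bases of Fancl on the other strand, was low at 2.48, 2.998 and 2.88 FPKM.

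Fancf, an adaptor of the core complex, had 4.74, 4.06 and 3.59 FPKM from 186, 124 and 136 reads and was 1.32-fold lower in P2 than in P0 (interval 1.05 to 1.66). Gas2 shares 15.0% of its exon bases on the other strand and differed by -0.47 in P2 against P0, so reads of the pair may be mixed. Fanca had 62.7, 78.7 and 66.5 FPKM and was highest in P1, with P1 over P0 at 1.25 (interval 1.18 to 1.33) and P2 over P0 at 1.06 (interval 0.997 to 1.13). The other core genes differed by between -0.14 and 0.17 in P2 against P0, and the interval of each held 1. Among them Fancb, which is X-linked and sits with FANCL in the catalytic module, had 4.39, 5.21 and 5.06 FPKM, and Fancm, the DNA translocase that anchors the complex to DNA, had 9.56, 9.31 and 10.1 FPKM. Fancc and Fance, which form another module with FANCF, had 8.91, 7.79 and 8.02 FPKM and 43.4, 40.3 and 41.9 FPKM.

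**Figure D3:**
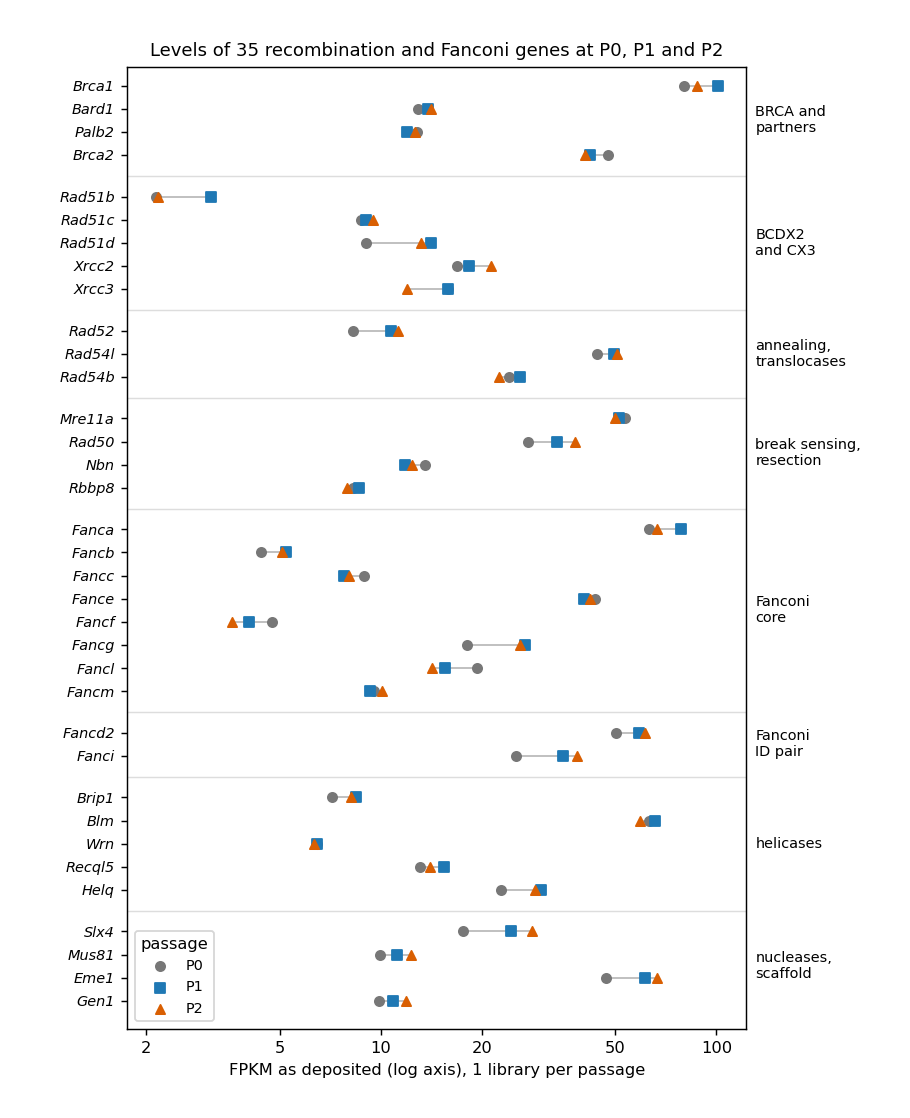
FPKM as deposited (log axis) of the 35 genes in P0 (grey circles), P1 (blue squares) and P2 (orange triangles), 1 library each, grouped by role. Brca1 is highest and Rad51b lowest in every library, and the highest and lowest library lie farthest apart in ratio for Slx4, Rad51d, Fanci and Fancg.

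Among the genes that find and trim breaks, Rad50 was the 1 gene of 4 that was higher in P2 than in P0, under the deposited, median-of-ratios and quantile scalings. Rad50, the ATPase that tethers DNA ends, had 27.5, 33.4 and 37.8 FPKM in P0, P1 and P2, with P2 over P0 at 1.38 (interval 1.28 to 1.47). Its complex partner Mre11a, the nuclease, had 53.5, 51.3 and 49.8 FPKM and was 1.07-fold lower in P2 than in P0 (interval 1.011 to 1.14). Nbn, the other subunit and the link to the ATM kinase, had 13.6, 11.8 and 12.4 FPKM and a P2 over P0 ratio of 0.910 (interval 0.814 to 1.018). Rbbp8, whose product CtIP starts resection, had 8.29, 8.62 and 7.95 FPKM. Within the MRE11-RAD50-NBN complex the messages thus did not share a direction in P2 against P0.

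The BRCA genes had no common direction in the deposited values, 2 higher and 2 lower in P2 than in P0, as with quantile normalization. All 4 were lower with median-of-ratios scaling, but Brca1 and Bard1 by only -0.01. Of the 4, only Brca2 then had an interval below 1. Brca1, a ubiquitin ligase that promotes resection, had 80.0, 101 and 87.2 FPKM in P0, P1 and P2. P1 was its highest library, with P1 over P0 at 1.26 (interval 1.20 to 1.33) and P2 over P0 at 1.09 (interval 1.04 to 1.14), a P2 minus P0 difference of 0.12 that became -0.01 with median-of-ratios scaling. Brca2, a breast cancer susceptibility gene that acts after resection, had 47.6, 42.1 and 40.5 FPKM and was 1.17-fold lower in P2 than in P0 (interval 1.11 to 1.24). Bard1, the obligate partner of BRCA1, had 12.9, 13.8 and 14.1 FPKM, and Palb2, the bridge between BRCA1 and BRCA2, had 12.8, 11.99 and 12.6 FPKM. Their P2 minus P0 differences were 0.12 and -0.02.

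The genes of the BCDX2 and CX3 complexes, which act in recombination after resection, divided. Rad51d had 9.05, 14.1 and 13.2 FPKM in P0, P1 and P2, from 423, 512 and 593 reads, with P1 over P0 at 1.56 (interval 1.37 to 1.77) and P2 over P0 at 1.45 (interval 1.28 to 1.65). Its partner Xrcc2 had 16.8, 18.3 and 21.3 FPKM, with P2 over P0 at 1.27 (interval 1.14 to 1.41). Both had their lowest level in P0. Xrcc3 had 15.8, 15.9 and 11.99 FPKM, so that P2 lay below both other libraries, 1.32-fold lower in P2 than in P0 (interval 1.12 to 1.56). Rad51c, which pairs with XRCC3 and also joins the BCDX2 complex, had 8.72, 9.04 and 9.47 FPKM. Rad51b was the lowest of all members at 2.13, 3.12 and 2.17 FPKM from 64, 73 and 63 reads, with P1 over P0 at 1.47 (interval 1.03 to 2.08) and a P2 minus P0 difference of 0.02 (interval of the ratio 0.709 to 1.47). Its intervals are the widest of the 35.

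The strand annealing gene Rad52 had 8.24, 10.7 and 11.3 FPKM in P0, P1 and P2, with P2 over P0 at 1.37 (interval 1.14 to 1.64). Rad54l, a DNA translocase, had 44.1, 49.5 and 50.6 FPKM and a P2 over P0 ratio of 1.15 (interval 1.08 to 1.22). Its paralog Rad54b had 24.1, 26.03 and 22.6 FPKM and a P2 over P0 ratio of 0.935 (interval 0.836 to 1.05). Rad52 and Rad54l were higher in P2 than in P0 also with median-of-ratios scaling, while Rad54b was lower with both. With median-of-ratios scaling the Rad54l difference was only 0.06 and its interval held 1, while the Rad52 interval stayed above 1. Lrrc41 shares 15.4% of the exon bases of Rad54l on the other strand and measured 20.6, 15.3 and 17.2 FPKM. Fsbp shares 35.8% of those of Rad54b on the same strand and measured 0.672, 0.534 and 0.850 FPKM.

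Of the 5 helicase genes, all were higher in P1 than in P0 and lower in P2 than in P1. With median-of-ratios scaling 3 were higher in P1 than in P0. In the deposited values, 57.6% of all genes compared were higher in P1 than in P0 and 46.2% lower in P2 than in P1. The P1 over P0 interval held 1 for Blm and Wrn, and the P2 over P1 interval for all of the 5 but Blm. Helq, a helicase that acts at stalled forks, had 22.9, 29.9 and 28.8 FPKM in P0, P1 and P2, with P2 over P0 at 1.26 (interval 1.14 to 1.39). Blm, the Bloom syndrome helicase that dissolves crossed junctions, had 62.8, 65.7 and 59.2 FPKM and was 1.06-fold lower in P2 than in P0 (interval 1.005 to 1.12). Wrn, the Werner syndrome helicase, had nearly the same level in each library, 6.45, 6.46 and 6.33 FPKM. Brip1, which binds BRCA1, had 7.16, 8.45 and 8.15 FPKM, and Recql5, a RecQ helicase, 13.1, 15.4 and 14.02 FPKM.

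The change of the ratio between partners of a complex is free of library scaling and of gene length. Of 13 pairs from known complexes, the interval of the change excluded 1 for 7 in P1 against P0, for 7 in P2 against P0 and for 5 in P2 against P1. The share among pairs of other genes was not computed, and among single genes compared the interval of the ratio excluded 1 for 57.0%, 65.3% and 43.0% in these comparisons, so the count of pairs is not read as particular to these genes. Rad50 over Mre11a had the largest upward change: the ratio of their FPKM was 0.515, 0.651 and 0.760 in P0, P1 and P2, a change between P2 and P0 of 1.48 (interval 1.35 to 1.62). Rad51c over Xrcc3 stood at 0.551, 0.570 and 0.790, a change of 1.43 (interval 1.16 to 1.77) in P2 against P0 and of 1.03 (interval 0.833 to 1.29) in P1 against P0. Fancl over Fancb had the largest downward change, with ratios of 4.41, 2.97 and 2.81 and a change in P2 against P0 of 0.638 (interval 0.516 to 0.789). In all 3 of these pairs P1 lay between P0 and P2.

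For the other pairs whose interval excluded 1 in P2 against P0, the change was smaller. It was 1.36 (interval 1.18 to 1.56) for Fancg over Fanca, 1.31 (interval 1.08 to 1.57) for Slx4 over Mus81, 1.24 (interval 1.13 to 1.36) for Fanci over Fancd2 and 1.16 (interval 1.03 to 1.31) for Palb2 over Brca2. Brca1 over Bard1 stood at 6.20, 7.34 and 6.20, level in P0 and P2 and higher in P1, where the change against P0 was 1.18 (interval 1.09 to 1.29). Rad51d over Xrcc2 was likewise highest in P1, at 0.538, 0.768 and 0.616. The P2 against P0 change was 1.15 (interval 0.958 to 1.39) for Eme1 over Mus81 and 0.977 (interval 0.860 to 1.11) for Nbn over Mre11a, so both intervals held 1.

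**Figure D4:**
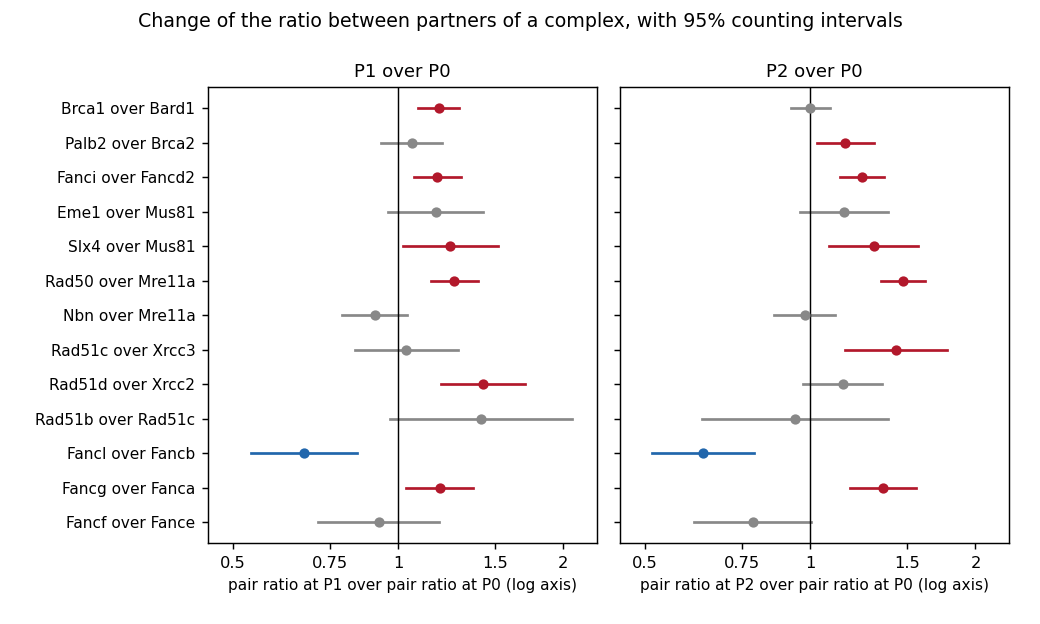
Change in the FPKM ratio of 13 pairs of complex partners between libraries (log axis) with exact conditional 95% counting intervals, for P1 over P0 (left) and P2 over P0 (right). Red marks an interval above 1, blue one below 1 and grey one that holds 1. Rad50 over Mre11a (1.48) and Fancl over Fancb (0.638) lie farthest from 1 in P2 over P0.

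Levels between genes depend on the length used for FPKM. For 28 of the 35 members the length behind the deposited value was within 1 base of the mean over all annotated transcripts of the gene. The longest coding transcript was a median of 2.05 times that length, and 4.19 times for Brca2, whose longest coding transcript of 10724 bases stands against a length of 2560 bases. Per longest coding transcript Rad54l was the highest member in every library, at 31.0, 34.8 and 35.6 FPKM, and Brca1, highest as deposited, came to 22.4, 28.35 and 24.5 FPKM. Rad51b was lowest by either length. In P0 the rank moved by 5 or more places for 11 of the 35 genes, Brca2 among them, while ratios between libraries do not depend on the length.

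**Figure D5:**
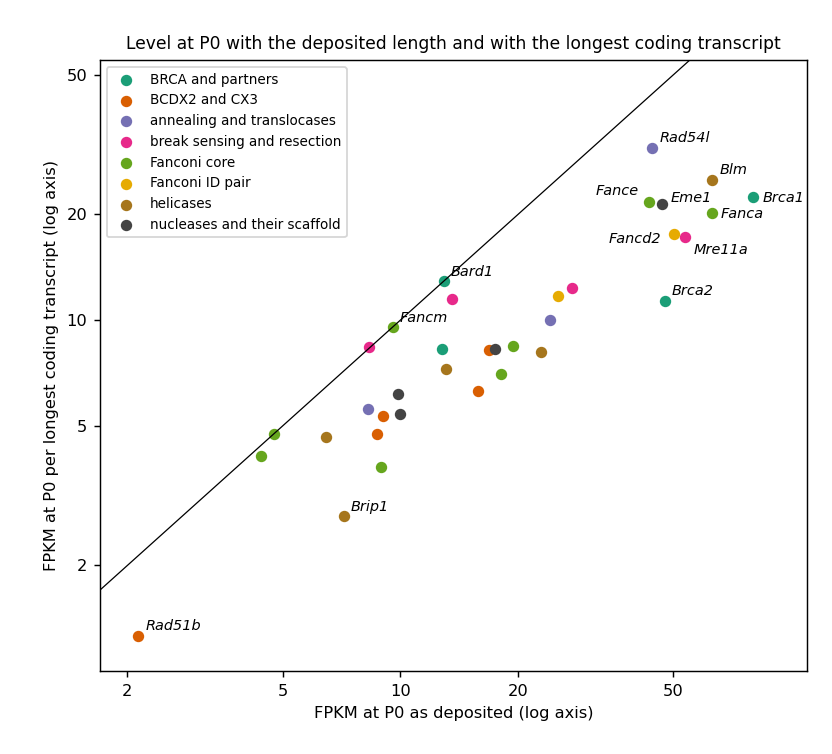
Level in P0 as deposited (horizontal axis, FPKM, log axis) against the level recomputed with the longest coding transcript (vertical axis, FPKM, log axis) for the 35 genes, coloured by role. The line marks equal values. Bard1 and Fancm lie on it, and Brca2, at 47.6 FPKM as deposited and 11.4 FPKM recomputed, lies far below it.

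Promoters are shown for Fanci, Fancg and Eme1, which are among the 4 members with the largest difference in P2 against P0. They are RefSeq sequences on GRCm38.p6, a later build than the mm9 of the reads, and run from 250 bases before to 50 bases after a start site, 5′ to 3′ on the strand of the gene. For these 3 genes the start site lies 26, 266 and 93 bases inside the RefSeq gene, and for Slx4, the other of the 4, it lies 2151 bases inside, so that window is not shown. Capitals mark every match to the motifs searched on both strands: E2F (TTTCCCGC, TTTCGCGC, TTTGCCGC or TTTGGCGC), CHR (TTTGAA or TTCGAA), the CCAAT box (CCAAT), the palindromic NRF1 site (by name) and ETS (CCGGAAGT). No 2 matches overlap in the windows shown.
Fanci, chr7:79392088-79392387, plus strand: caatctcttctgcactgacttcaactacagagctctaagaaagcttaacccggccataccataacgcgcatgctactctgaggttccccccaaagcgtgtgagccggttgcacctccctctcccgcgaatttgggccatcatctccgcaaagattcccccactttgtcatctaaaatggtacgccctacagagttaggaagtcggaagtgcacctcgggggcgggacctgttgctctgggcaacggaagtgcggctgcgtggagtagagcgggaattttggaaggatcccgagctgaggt
Fancg, chr4:43010252-43010551, minus strand: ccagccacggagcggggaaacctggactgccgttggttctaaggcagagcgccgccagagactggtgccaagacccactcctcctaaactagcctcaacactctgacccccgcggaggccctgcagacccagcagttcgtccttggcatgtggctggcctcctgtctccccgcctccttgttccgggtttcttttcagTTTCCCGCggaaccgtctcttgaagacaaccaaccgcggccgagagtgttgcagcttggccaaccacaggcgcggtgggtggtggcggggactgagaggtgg
Eme1, chr11:94653694-94653993, minus strand: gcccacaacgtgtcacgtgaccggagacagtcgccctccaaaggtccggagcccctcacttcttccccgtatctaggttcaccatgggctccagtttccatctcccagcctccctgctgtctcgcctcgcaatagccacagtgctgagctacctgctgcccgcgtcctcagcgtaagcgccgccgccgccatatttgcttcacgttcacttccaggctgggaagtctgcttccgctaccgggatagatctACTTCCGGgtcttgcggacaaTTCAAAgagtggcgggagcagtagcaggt

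Fancg held an E2F match that begins 52 bases before the start site of its window. As that start site lies 266 bases inside the RefSeq gene, the match is inside the gene as well. Eme1 held an ETS match at the start site and a CHR match 21 bases after it, both as the reverse complement. The letters of the motifs were not found in the Fanci window. Promoters were in the table for 27 of the 35 genes, 30 windows in all, and not for Rad51d, Xrcc2, Rad54b, Rad50, Nbn, Rbbp8, Fancd2 and Wrn.

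The E2F letters, known as sites of the factors that switch on many S phase genes, were in 5 of the 30 member windows (16.7%), those of Bard1, Brca2, Fancg and Rad51c, and in 2.26% of all 32851 windows of the table. The CCAAT box was in 18 of 30 (60.0%) and in 37.4% of all windows, and the ETS motif in 4 (13.3%) and in 3.89%. The 18 include the window of Slx4, which is not shown because its start site lies 2151 bases inside the gene. The CHR motif was in 4 (13.3%) and in 19.2% of all windows, and the NRF1 motif in 0 and in 0.971%. Rad51c held E2F letters in 2 windows, so by gene the E2F count was 4 of 27. All windows of the table were counted, whether or not the gene was at FPKM 1 or above here. A match is a run of letters and not a bound site. The 4 genes with E2F letters differed by -0.23 to 0.50 in P2 against P0 with a median of 0.11, and the 23 genes without them by -0.42 to 0.65 with a median of 0.10. The medians with and without the motif were 0.04 and 0.28 for the CCAAT box (16 and 11 genes, Slx4 among the 16). They were 0.28 and 0.10 for ETS (4 and 23 genes) and 0.18 and 0.10 for CHR (4 and 23 genes).

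Of 44 further genes of recombination and the Fanconi pathway, 43 were in the table under the name used and 42 were above the floor, all of these but Eme2. None of the 42 differed by 1 or more in the 3 comparisons. Of all genes, 4.67% did in P1 against P0, 7.88% in P2 against P0 and 1.66% in P2 against P1. In P2 against P0, 2 of the list were higher by 0.5 and 1 lower, beside 18.8% and 5.89% of all genes. The median over the list was 0.04, beside 0.07 over all genes compared. Other scalings were not tried on this list. Zswim7, a gene of the Shu complex, had 27.5, 32.5 and 46.8 FPKM in P0, P1 and P2, with P2 over P0 at 1.698 (interval 1.51 to 1.91). Rfwd3, a ubiquitin ligase of the Fanconi pathway that acts on RPA, had 49.7, 59.97 and 79.6 FPKM, with P2 over P0 at 1.60 (interval 1.55 to 1.66). Both had their highest level in P2.

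Next in size upward were Cenpx, a DNA-binding partner of FANCM, with P2 over P0 at 1.33 (interval 1.21 to 1.47), and Ube2t, the enzyme that hands ubiquitin to FANCL, at 1.33 (interval 1.20 to 1.48). At the other end, Rmi1, which works with the BLM helicase, had 8.28, 6.32 and 5.37 FPKM and was 1.54-fold lower in P2 than in P0 (interval 1.36 to 1.74). Usp1, which takes ubiquitin off FANCD2, had a P2 over P0 ratio of 0.790 (interval 0.758 to 0.824). The ratio was 0.791 (interval 0.752 to 0.833) for Bccip, whose product binds BRCA2, and 0.783 (interval 0.699 to 0.876) for Brcc3, a deubiquitinase of a BRCA1 complex. Of these last 4 genes only Rmi1 passed 0.5.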

How the data were processed

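Total RNA was purified with a Qiagen kit and sequenced from 3 libraries, per the labels' protocols. The authors deposited FPKM values in 1 table. Bowtie2 2.0.6, TopHat2 2.0.9 and mm9 appear in the submitters' processing notes. The counting program, its annotation and the strand setting were not given in the sources used here, so overlapping genes may share reads: 18 of the 35 members share exon bases with another GENCODE M21 gene. Symbols matched 49326 of 49671 Ensembl IDs.

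Library totals were found from genes with 1 transcript. With them, each of 26291 IDs above 0 gave whole reads (relative tolerance 1e-08), against 0 of 300 genes tried with changed totals. Where several lengths were possible, that nearest to the mean transcript was taken. The recovered reads sum to 100.5% of each total. The scripts were tested on simulated data.

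Ratio intervals are conditional Clopper-Pearson, and pair intervals exact conditional intervals of the odds ratio. By rule, ratios are given for members past 0.5 in a comparison and for the largest and smallest P2 minus P0 difference in each role, and for 4 other pathway genes at each end. Ratios of Eme1, Fancf, Fanca, Mre11a, Xrcc2, Rad51b and Rad54l were added after their values were seen, and the 13 pairs were set up after the data were seen. The members and lists were chosen with earlier results of these data known. Alternatives tried were another pseudocount, floor and scaling, and leaving out short RNA genes and IDs without a symbol. Leaving out overlapping members, the longest coding transcript as length and median-of-ratios scaling of intervals were chosen after seeing the data. Computations used matplotlib 3.10.9, pandas 2.3.3, scipy 1.17.1, numpy 2.4.6 and Python 3.11.15.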

Additional observations from a re-analysis of the deposited data

How the results depend on the processing

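No member differed by 1 or more under any alternative run. The count past 0.5 in P1 against P0, 2, became 3 with a pseudocount of 0.1, 0 with median-of-ratios scaling and 0 with quantile normalization. In P2 against P0 the count of 3 became 5 with a pseudocount of 0.1 and 5 with rescaling to 1000000, all higher. It became 2 with median-of-ratios scaling (Slx4 higher, Fancl lower at -0.54). With quantile normalization it became 4 (Slx4 and Fanci higher, Fancl lower at -0.51 and Fancf at -0.51). Without members that overlap another gene by 10% or more, Fanci among them, it became 2, all higher. In P2 against P1 the count of 0 became 1 with a pseudocount of 0.1. The median in P1 against P0, 0.13, was 0.023 with median-of-ratios scaling and 0.0425 with quantile normalization. In P2 against P0 the median of 0.11 turned to -0.0115 with median-of-ratios scaling and was 0.0064 with quantile normalization. In P2 against P1 the median of -0.03 turned to 0.0284 with a floor of FPKM 5, which leaves 33 members, and to 0.0009 without members that overlap another gene by 10% or more, which leaves 28 and was chosen after seeing the data. The causes of the shifts with scaling were not tested. Of 140 recomputed P2 minus P0 differences of single members, 15 moved by more than the half-width of their counting interval. The sign turned for 7 members with median-of-ratios scaling and 4 with quantile normalization, none of them past 0.5. No paired analysis was possible because each passage has 1 library, and no library could be left out. Depth limits Rad51b most, at 63 to 73 reads.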
